A study of Homo sapiens with 4 samples.

Results

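The 10 human genes described here regulate or mark epithelial-mesenchymal transition: the transcription factor genes SNAI1, SNAI2, ZEB1, ZEB2 and TWIST1, the mesenchymal genes VIM, FN1 and CDH2, and the epithelial genes CDH1 and EPCAM. They were chosen by symbol from the 36601 human genes of the count tables. UMIs of 9 of the 10 were found in every library, and TWIST1 had none in any.

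The study grew PANC-1, a human pancreatic ductal adenocarcinoma line, as tumours under the skin of nude mice, which lack a normal thymus, and made single-cell RNA libraries from the digested tumours. One library came from a tumour treated with agrimoniin, an ellagitannin from agrimony plants. The next was treated with erlotinib, which blocks the kinase of the EGF receptor, the third with agrimoniin and erlotinib together (combination), and the last is labelled control. All 4 libraries thus share the cell line, the host strain and the site of growth, and doses, duration and animals per library are not given in the labels. The design text of the series has cyranin in place of the erlotinib of the sample labels, which were taken as they stand.

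With 1 library per group no difference below has a replicate check or a test. Each value compares libraries, and the 3 ratios to control share that control library. Every barcode held UMIs of both species, with a human share from 28.2% to 94.1%, so the human-gene UMIs of a barcode were taken as its human part, which need not be a single tumour cell. The human parts kept numbered 283 for agrimoniin, 292 for erlotinib, 245 for combination and 193 for control, 1013 in all, and held 3690705, 3775711, 3109510 and 2420470 human UMIs in that order. Levels are given as counts per 1e6 human UMIs (CPM), over all kept parts of the library together. Each UMI marks a single captured transcript end, so levels were not divided by gene length. All intervals are exact 95% intervals of counting error only. Of the PANC-1 markers, EGFR lay at 160 to 184 CPM, KRT18 at 47.1 to 65.4 CPM and KRT8 at 36.0 to 49.2 CPM, whereas KRT7 lay at 0.813 to 1.24 CPM and KRT19 at 0 to 0.530 CPM, so the duct keratins KRT7 and KRT19 were near absent.

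In epithelial-mesenchymal transition, epithelial cells lose adherens junctions and gain motility. The zinc-finger proteins SNAIL (SNAI1), SLUG (SNAI2), ZEB1 and ZEB2 and the helix-loop-helix protein TWIST1 repress CDH1, the gene of E-cadherin, largely through E-box elements, while N-cadherin (CDH2), vimentin (VIM) and fibronectin (FN1) are gained. ZEB1 and ZEB2 and the microRNAs of the miR-200 family repress each other, the microRNAs by pairing their seed with sites in the ZEB1 and ZEB2 3′ untranslated regions.

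The 5 mature microRNAs of that family are shown because their seeds set the sites searched below. They are from RefSeq (GRCh38.p14), 5′ to 3′, with the seed (bases 2 to 8) in capitals. Those with the seed AAUACUG are encoded on chromosome 1 (miR-200b and miR-429) and chromosome 12 (miR-200c).
hsa-miR-200b-3p: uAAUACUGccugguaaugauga
hsa-miR-200c-3p: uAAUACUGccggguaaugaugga
hsa-miR-429: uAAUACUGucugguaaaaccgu
Those with the seed AACACUG are encoded on chromosome 1 (miR-200a) and chromosome 12 (miR-141).
hsa-miR-200a-3p: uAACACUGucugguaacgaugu
hsa-miR-141-3p: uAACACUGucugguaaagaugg

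The ZEB1 3′ untranslated region of 2549 bases (GENCODE 29, chromosome 10, plus strand) held 9 matches to either seed, the DNA letters CAGTATT or CAGTGTT on the transcript strand. Among 2354 other genes with an untranslated region of like length (within 20%), 46.6% had at least 1 match and 0% had as many as 9. ZEB2, with 5370 bases, also held 9 matches, where 72.3% of 1103 genes of like length had at least 1 and 0.0907% had as many. FN1 held 2 matches, and SNAI1, TWIST1, VIM, CDH1, CDH2 and EPCAM held 0, beside 28.2% of all 19115 genes with at least 1. Matches in SNAI2 were not looked up. A match is a run of letters and not a measured site. Of the 9 in ZEB1, 4 are shown so that both seeds can be seen pairing, with the match in capitals and its bases counted from the start of the untranslated region.
ZEB1 369-375: attgttttatcttatCAGTATTatc
ZEB1 463-469: atgctaaatccgcttCAGTATTtta
ZEB1 782-788: caaaatcatcagaatCAGTGTTtgt
ZEB1 1533-1539: tgagatttgatttaaCAGTGTTatg
Mature microRNAs were not measured. MIR200CHG, the host transcript gene of miR-200c and miR-141, which was looked up after other values had been seen, had 0 UMIs in all 4 libraries, which allows up to 0.813, 0.795 and 0.965 CPM in agrimoniin, erlotinib and combination and 1.24 CPM in control (3 counts per library).

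The promoter table of RefSeq held windows for ZEB1, ZEB2, VIM, CDH2 and FN1, 12 in all, each from 250 bases before to 50 after a transcript start. The E-box CAGGTG, searched on both strands (CACCTG on the other), was present in 2 of the 12 windows, both of ZEB1, and in 20.6% of all 35116 windows. The ZEB1 window with the most matches is shown because ZEB1 is the repressor gene with the highest level in these cells. It covers chr10:31318966-31319265 (GRCh38.p14, plus strand), with 3 matches in capitals.
ZEB1 promoter: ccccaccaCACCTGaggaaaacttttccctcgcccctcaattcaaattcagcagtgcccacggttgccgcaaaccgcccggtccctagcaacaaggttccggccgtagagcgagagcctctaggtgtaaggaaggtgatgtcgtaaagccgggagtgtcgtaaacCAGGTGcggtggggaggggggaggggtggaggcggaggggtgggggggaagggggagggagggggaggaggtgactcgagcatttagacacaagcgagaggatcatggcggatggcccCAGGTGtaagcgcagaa
No entry for SNAI1, SNAI2, TWIST1, CDH1 or EPCAM was matched.

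VIM and CDH2 were well above CDH1 in every library, while EPCAM exceeded FN1. VIM, an intermediate filament of mesenchymal cells, had 6272, 5647 and 5941 CPM in agrimoniin, erlotinib and combination and 5609 CPM in control, and its median was 70, 65, 65 and 60 UMIs per human part in that order. At the other end, CDH1 had 6, 7, 2 and 4 UMIs in those libraries, or 1.63, 1.85, 0.643 and 1.65 CPM. CDH2 exceeded CDH1 in every library, with 97.3, 93.2, 82.0 and 61.1 CPM. The intervals of the cadherins were far apart in each library, since the highest upper bound for CDH1 was 4.23 CPM and the lowest lower bound for CDH2 was 51.7 CPM, both in control. EPCAM, at 18.2, 25.2 and 22.5 CPM in the treated libraries and 20.7 CPM in control, was found in 18.7% to 22.9% of parts, and FN1, at 6.09 to 12.8 CPM, in 2.59% to 5.71%. Other epithelial genes were also present: the desmosomal gene DSP lay at 168 to 238 CPM, and the tight-junction genes TJP1 and OCLN at 94.6 to 111 CPM and 63.0 to 71.5 CPM.

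Among the repressor genes, ZEB1 was the most abundant in every library. Below it, SNAI2 exceeded SNAI1 in agrimoniin, with 42.0 (35.7 to 49.2) against 22.5 (17.9 to 27.9) CPM, and their intervals did not overlap. In control the order was turned, with 43.0 (35.1 to 52.1) CPM for SNAI2 and 61.6 (52.1 to 72.3) for SNAI1. In erlotinib and combination the intervals of SNAI2 and SNAI1 overlapped. ZEB2 lay at 4.13 to 7.59 CPM, from 10 to 28 UMIs, and TWIST1 at 0.

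**Figure D1:**
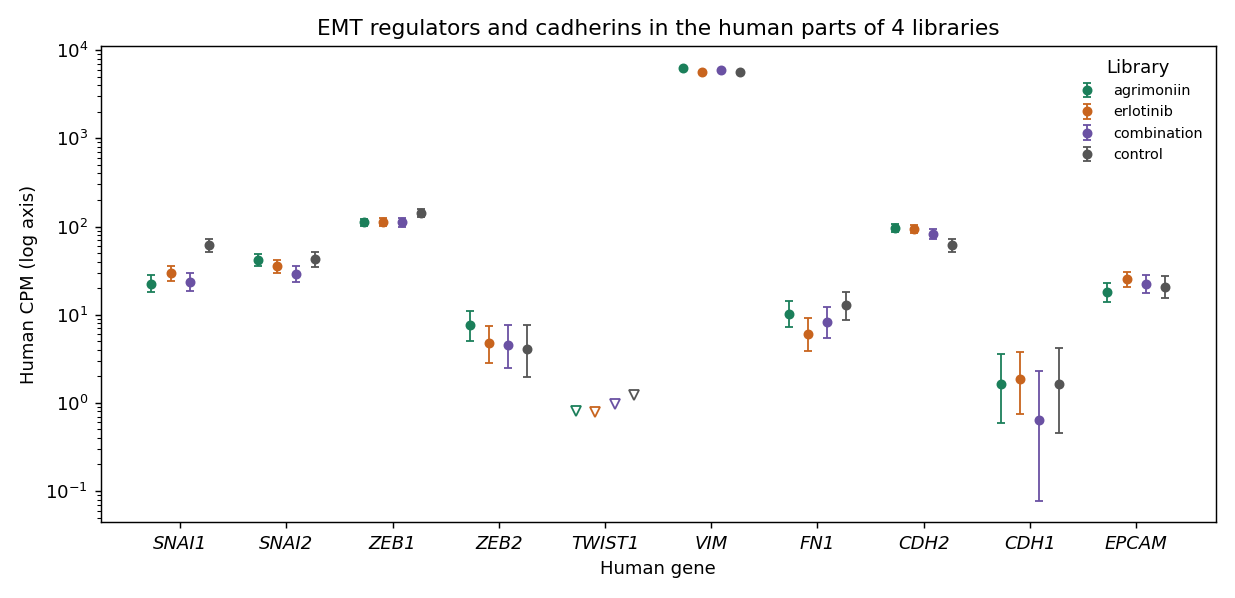
Human CPM of the 10 genes on a log axis, by library, with exact Poisson 95% intervals; open triangles give the level that 3 counts would make for TWIST1, which had 0. VIM stands at 5609 to 6272 CPM and CDH1 below 2 CPM in all 4 libraries, and SNAI1 shows the treated libraries at 22.5 to 29.4 CPM against 61.6 CPM in control.

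SNAI1 (chr20:49982999-49988886, GENCODE 29, plus strand), whose product SNAIL is a short-lived repressor, had the lowest ratio to control of the members with a mean of at least 10 CPM in each of the 3 comparisons with control. It had 83, 111 and 74 UMIs in agrimoniin, erlotinib and combination, against 149 in control, although control had the fewest human UMIs. As levels these were 22.5, 29.4 and 23.8 CPM in the treated libraries and 61.6 CPM in control. No interval of a treated library reached that of control, whose lower bound was 52.1 CPM. The ratio to control was 0.365 (0.276 to 0.481) for agrimoniin. For erlotinib it was 0.478 (0.370 to 0.615), and for the combination 0.387 (0.288 to 0.514). Of all human genes with a mean of at least 10 CPM, 0.216%, 0.541% and 0.303% were at least 2-fold lower in the same comparisons.

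The combination did not differ from either single drug in SNAI1 beyond counting error. Its ratio was 1.06 (0.763 to 1.47) to agrimoniin and 0.809 (0.595 to 1.10) to erlotinib. Those intervals allow differences of up to 1.47-fold and down to 0.595-fold.

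Both the number of human parts with SNAI1 and the UMIs in them differed. SNAI1 was found in 51 of 283 agrimoniin parts (18.0%), 66 of 292 erlotinib parts (22.6%) and 48 of 245 combination parts (19.6%), against 67 of 193 control parts (34.7%). Parts with SNAI1 held a mean of 1.63, 1.68 and 1.54 UMIs of it in the treated libraries and 2.22 in control. Since detection follows depth, each part was also thinned to 5000 human UMIs, which left out 1 part of agrimoniin and 1 of erlotinib. The shares were then 9.22%, 12.7% and 8.98% in the treated libraries and 16.1% in control, with intervals that overlapped (6.11% to 13.2% in agrimoniin and 11.2% to 22.0% in control). No barcode was free of human UMIs, so no class of barcodes gave a background for such shares.

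**Figure D2:**
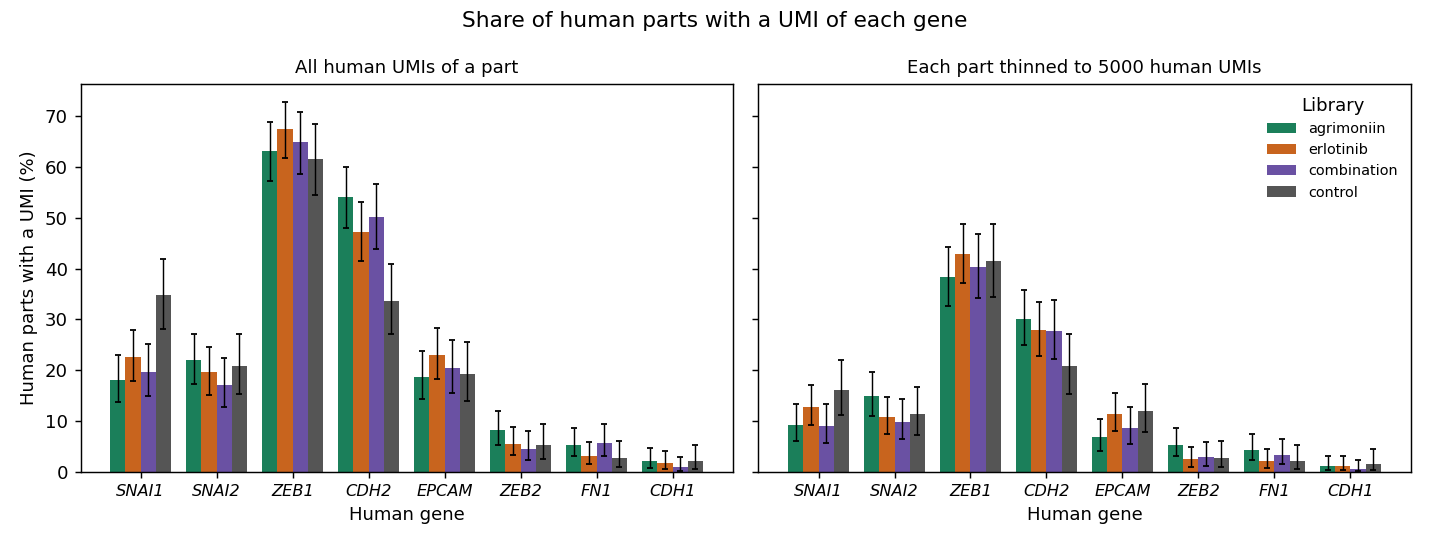
Percent of human parts with at least 1 UMI of each gene, by library, with exact binomial 95% intervals, from all UMIs (left) and after thinning each part to 5000 human UMIs (right). SNAI1 is highest in control (34.7%) and CDH2 lowest there (33.7%), while the ZEB1 shares lie within 61.7% to 67.5%. Thinning lowers all of these shares and leaves the control at the same end for SNAI1 and CDH2, with intervals that overlap those of the treated libraries.

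ZEB1 (chr10:31318495-31529814, plus strand) was lower than control by a smaller amount. The agrimoniin, erlotinib and combination libraries had 111, 113 and 111 CPM of it, against 143 (129 to 159) CPM in control. The upper bounds of the treated libraries, up to 124 CPM, stayed below the control interval. The ratios were 0.777 (0.672 to 0.899), 0.785 (0.680 to 0.907) and 0.776 (0.667 to 0.903), none of them past the fold of 1.5 used for counting. The share of parts with ZEB1 did not follow: it was 63.3%, 67.5% and 64.9% in the treated libraries and 61.7% in control, and 38.3%, 43.0% and 40.4% against 41.5% after thinning. Parts with ZEB1 held a mean of 2.30, 2.16 and 2.18 UMIs of it in the treated libraries and 2.92 in control, with a maximum in a single part of 10, 12 and 12 against 18. At a human share of at least 75% the ratios were 0.823 (0.662 to 1.03), 0.957 (0.776 to 1.19) and 0.888 (0.717 to 1.10). Each of these intervals included 1. Under 75% they were 0.813 (0.664 to 0.995), 0.671 (0.541 to 0.831) and 0.781 (0.610 to 0.994). In the barcodes of at least 75%, the log2 ratio for erlotinib was -0.06, beside -0.32 over all parts.

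The remaining repressor genes gave smaller or less certain differences. SNAI2, the gene of SLUG, had 42.0, 35.2 and 28.9 CPM in agrimoniin, erlotinib and combination and 43.0 in control. Only the ratio of the combination to control excluded 1, at 0.674 (0.502 to 0.902), and the combination was also lower than agrimoniin, at 0.689 (0.525 to 0.899). The direction turned with the human share of the barcode. At a share of at least 75%, SNAI2 had 39.5, 40.2 and 27.9 CPM in agrimoniin, erlotinib and combination and 63.7 CPM in control, with ratios of 0.620 (0.450 to 0.856), 0.631 (0.460 to 0.868) and 0.438 (0.309 to 0.622). Under 75% it had 46.2, 26.4 and 31.9 CPM in the treated libraries and 24.8 CPM in control, with ratios of 1.86 (1.20 to 2.94), 1.07 (0.643 to 1.77) and 1.29 (0.731 to 2.24). SNAI2 was thus lower than control in all 3 treated libraries at high human share, and in agrimoniin higher than control at low share. ZEB2, a homologue of ZEB1, had ratios to control of 1.84 (0.866 to 4.24), 1.15 (0.505 to 2.80) and 1.09 (0.450 to 2.74), all within counting error over all parts. At a human share of at least 75% it had 9, 16 and 11 UMIs in the treated libraries and 0 in control. The lower bounds of the ratios there were 0.968, 1.81 and 1.22. Under 75% it had 19, 2 and 3 UMIs against 10. Those ratios were 1.77 (0.783 to 4.26), 0.189 (0.0202 to 0.889) and 0.494 (0.0874 to 1.92). TWIST1 had 0 UMIs in 283, 292, 245 and 193 parts, which allows shares of parts with a UMI of up to 1.06%, 1.03%, 1.22% and 1.55%; this limits parts with a UMI, not cells that express the gene. In the mouse parts of the same barcodes Twist1 had 66.5 to 98.1 mouse CPM, so UMIs of the host gene were not counted as TWIST1.

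CDH2 (chr18:27950966-28177446, minus strand), the gene of N-cadherin, was the member with the highest ratio to control among those with a mean of at least 10 CPM, in each of the 3 comparisons. It had 359, 352 and 255 UMIs in agrimoniin, erlotinib and combination and 148 in control. The levels were 97.3 (87.5 to 108), 93.2 (83.7 to 103) and 82.0 (72.3 to 92.7) CPM against 61.1 (51.7 to 71.8) CPM in control. The ratios to control were 1.59 (1.31 to 1.94), 1.52 (1.25 to 1.86) and 1.34 (1.09 to 1.65). The combination lay below agrimoniin, at a ratio of 0.843 (0.715 to 0.993), and within counting error of erlotinib, at 0.880 (0.746 to 1.04). CDH2 was found in 54.1%, 47.3% and 50.2% of treated parts and 33.7% of control parts, and after thinning in 30.1%, 27.8% and 27.8% against 20.7%. The thinned intervals overlapped that of control (24.8% to 35.9% in agrimoniin and 15.2% to 27.1% in control). Parts with CDH2 held similar numbers of its UMIs, with means of 2.35, 2.55 and 2.07 in the treated libraries and 2.28 in control.

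The epithelial members had ratios to control within counting error over all parts. EPCAM, an adhesion protein of epithelial cells, had 18.2, 25.2 and 22.5 CPM in agrimoniin, erlotinib and combination and 20.7 in control, with ratios of 0.879 (0.600 to 1.29), 1.22 (0.856 to 1.75) and 1.09 (0.747 to 1.60). In agrimoniin and erlotinib its ratio lay above 1 at a high human share of the barcode and below 1 at a low share. The interval included 1 at high share in agrimoniin and at low share in erlotinib. At a share of at least 75% EPCAM had 21.7, 26.1 and 19.8 CPM in the treated libraries and 13.3 CPM in control, with ratios of 1.63 (0.903 to 3.13), 1.97 (1.11 to 3.72) and 1.49 (0.817 to 2.87). Under 75% it had 12.3, 23.5 and 30.6 CPM against 27.1 CPM, with ratios of 0.452 (0.238 to 0.829), 0.866 (0.519 to 1.44) and 1.13 (0.643 to 1.95). These classes rest on 15 and 35 control UMIs. CDH1 had ratios of 0.984 (0.233 to 4.74), 1.12 (0.285 to 5.23) and 0.389 (0.0352 to 2.72), so that differences of several-fold either way were not detectable at this depth. VIM was also above control in agrimoniin and combination, by less: its ratios were 1.12 (1.10 to 1.14), 1.01 (0.985 to 1.03) and 1.06 (1.04 to 1.08), intervals that are narrow because of its many UMIs.

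FN1, the gene of fibronectin, rested on few UMIs. It had 38, 23 and 26 UMIs in the treated libraries and 31 in control, or 10.3, 6.09 and 8.36 CPM against 12.8 CPM. Of the 31 control UMIs, 21 lay in 1 human part (67.7%), and only 5 of 193 control parts held any. Its ratios to control were 0.804 (0.487 to 1.34), 0.476 (0.265 to 0.843) and 0.653 (0.372 to 1.14), in the order agrimoniin, erlotinib, combination. Without the part richest in FN1 in each library, 28, 16 and 21 UMIs were left in the treated libraries and 10 in control, with ratios of 1.83 (0.864 to 4.23), 1.02 (0.437 to 2.52) and 1.63 (0.735 to 3.88). No FN1 ratio stayed below 1 without those parts.

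**Figure D3:**
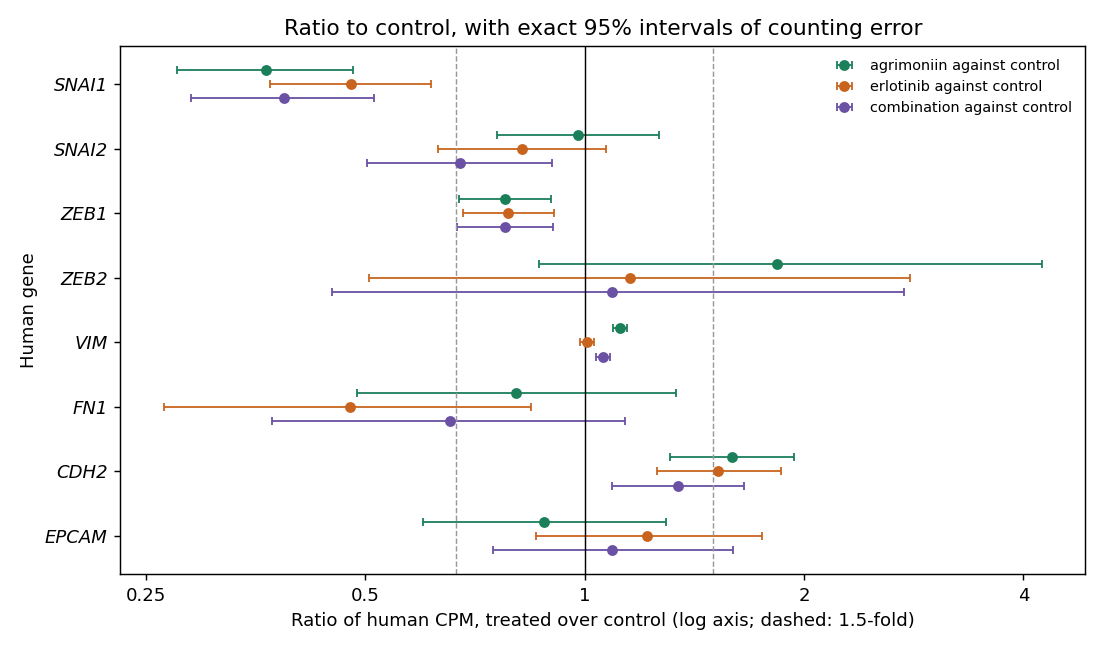
Ratio of human CPM in each treated library to control for 8 of the genes, on a log axis, with exact 95% intervals; dashed lines mark 1.5-fold. SNAI1 lies at 0.365 to 0.478 and CDH2 at 1.34 to 1.59, ZEB1 lies near 0.78 in all 3 comparisons, and the intervals of ZEB2 and EPCAM all include 1.

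Counted at a fold of 1.5 among members with a mean of at least 10 CPM, agrimoniin had 1 member higher (CDH2) and 1 lower (SNAI1) of 7, where 5.18% of 9251 human genes passed in either direction, 3.21% higher and 1.97% lower. Erlotinib likewise had CDH2 higher and SNAI1 lower of 6, where 6.46% of 9243 genes passed, 3.7% higher and 2.76% lower. The combination had 0 higher and 2 lower of 7, SNAI1 and FN1, the second only with the richest parts included, where 5.93% of 9241 genes passed, 3.18% higher and 2.75% lower. Against agrimoniin and against erlotinib the combination had 0 of 6 members past the fold in each case (3.76% and 4.78% of all genes). The median log2 ratio of the members to control was -0.12, -0.11 and -0.31 for agrimoniin, erlotinib and combination, beside 0.03, 0.02 and 0.02 over all genes. These log2 ratios carry a pseudocount of 10 CPM, so a change in a low gene is understated.

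Where in the library the differences of SNAI1 and CDH2 lay was described with classes of parts chosen after other values had been seen. Human parts with a UMI of MKI67 or TOP2A, genes of dividing cells, numbered 128, 163 and 121 in agrimoniin, erlotinib and combination and 93 in control. In them SNAI1 had 19.6, 22.4 and 18.8 CPM against 68.3 CPM in control, with ratios of 0.287 (0.190 to 0.425), 0.328 (0.228 to 0.466) and 0.275 (0.178 to 0.416). In the parts with neither gene SNAI1 had 25.5, 40.6 and 29.9 CPM against 53.5 CPM, with ratios of 0.477 (0.317 to 0.713), 0.760 (0.520 to 1.11) and 0.559 (0.367 to 0.844). Thus the interval for erlotinib included 1 in the parts without these 2 transcripts.

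CDH2 showed the opposite layout. In parts with MKI67 or TOP2A it had 99.1, 82.2 and 76.9 CPM in the treated libraries and 75.1 CPM in control, with ratios of 1.32 (1.03 to 1.70), 1.09 (0.854 to 1.41) and 1.02 (0.782 to 1.34). In parts with neither it had 95.4, 111 and 88.2 CPM against 44.4 CPM, with ratios of 2.15 (1.55 to 3.01), 2.50 (1.80 to 3.51) and 1.99 (1.42 to 2.82). Whether ratios differ between the classes was not tested, since the parts of 1 library are not replicates. Of 8 cycling genes, 1 was higher past 1.5-fold in agrimoniin (CDC20), 2 in erlotinib (CDK1 and PCNA) and 1 in combination (CDK1), and 0 were lower, where 3.21%, 3.7% and 3.18% of all genes were higher. Their median log2 ratios to control were 0.38, 0.39 and 0.14. MKI67 had 141, 161 and 143 CPM in the treated libraries and 136 CPM in control, and CDK1 had 49.6, 63.0 and 52.1 CPM against 33.5 CPM.

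The human share of a barcode gave a like split for CDH2. Barcodes with at least 75% human UMIs numbered 149, 153 and 163 in agrimoniin, erlotinib and combination and 66 in control. There CDH2 had 98.9, 87.0 and 86.4 CPM against 82.3 CPM in control, and every ratio's interval included 1: 1.20 (0.940 to 1.55), 1.06 (0.824 to 1.36) and 1.05 (0.817 to 1.36). In barcodes under 75% it had 94.5, 104 and 68.9 CPM against 42.6 CPM, with ratios of 2.22 (1.61 to 3.10), 2.45 (1.78 to 3.40) and 1.62 (1.09 to 2.40). The CDH2 ratios were thus larger in the barcodes of lower human share. The control library as a whole had the lowest human share, 68.5% against 73.9%, 73.8% and 77.9%. The part of the human share in the CDH2 difference was not tested.

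SNAI1 stayed lower on both sides of that limit. At a human share of at least 75% it had 28.6, 26.1 and 27.1 CPM in the treated libraries and 73.5 CPM in control, and under it 12.3, 35.2 and 14.0 CPM against 51.1 CPM. Under 75% the interval for erlotinib included 1, at a ratio of 0.689 (0.465 to 1.01).

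**Figure D4:**
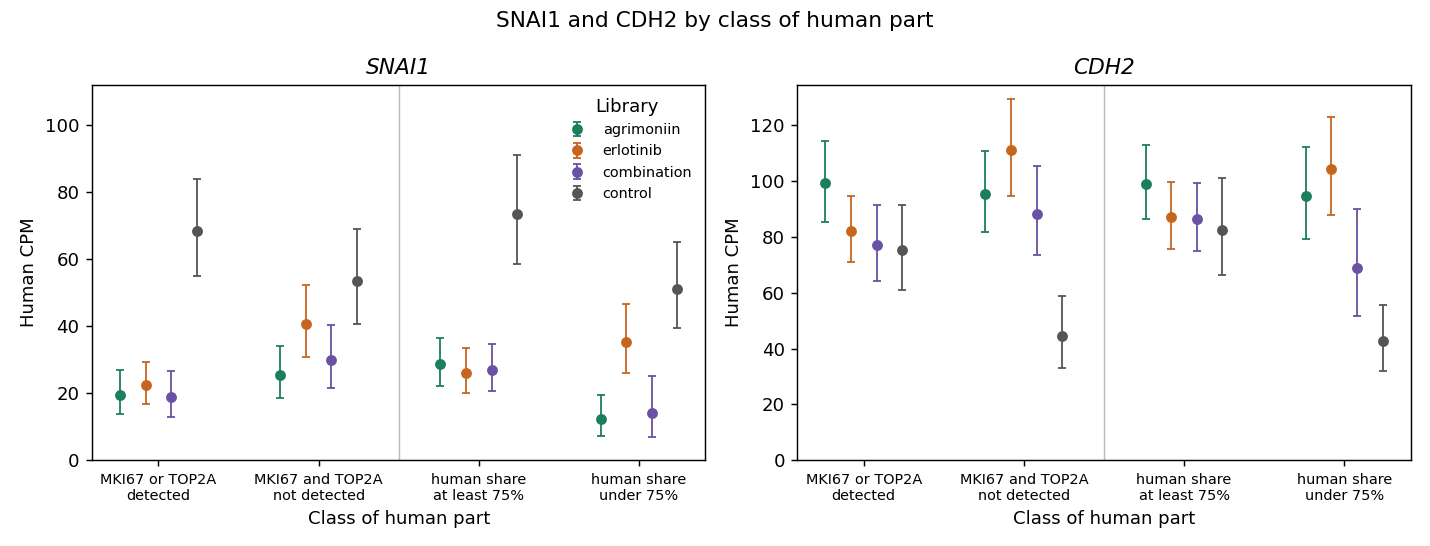
Human CPM of SNAI1 (left) and CDH2 (right) by library in 4 classes of human part, with exact Poisson 95% intervals: with or without a UMI of MKI67 or TOP2A, and from barcodes with a human share of at least or under 75%. For SNAI1 the control lies highest in every class, at 51.1 to 73.5 CPM; for CDH2 it lies at 44.4 and 42.6 CPM in the parts with neither MKI67 nor TOP2A and in those of low human share, and at 75.1 and 82.3 CPM in the others.

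Dissociation-stress genes were set beside SNAI1, because enzymatic digestion induces such genes. Of 15, 0 were higher and 1 (HSPA6) lower past 1.5-fold in agrimoniin, 0 passed in erlotinib, and 0 were higher and 1 (HSPA6) lower in the combination. The shares of all genes past the fold in either direction were 5.18%, 6.46% and 5.93%, so these counts are no result about the list. Its median log2 ratios to control were -0.19, 0.00 and -0.35. HSPA6, an inducible heat-shock gene, had 21.9, 101 and 15.1 CPM in agrimoniin, erlotinib and combination and 95.02 CPM in control. HSPA6 was thus below control in agrimoniin and combination and near it in erlotinib, while SNAI1 was below control in all 3. Of the 15 genes, 14, 7 and 13 lay below control in agrimoniin, erlotinib and combination. The part of dissociation stress in the SNAI1 difference was not tested. The immediate-early gene EGR1 had 1140, 1265 and 1106 CPM in the treated libraries and 1168 CPM in control.

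The host was examined because every barcode also held mouse RNA. By the larger of its fibroblast and macrophage marker sums, each over its mean, the mouse part of a kept barcode was called fibroblast-rich in 114, 103 and 107 treated barcodes and 97 control barcodes, and macrophage-rich in 169, 189 and 138 against 96. Human SNAI1 was lower than control beside both hosts: 16.3, 29.6 and 20.0 CPM against 57.6 CPM beside fibroblast-rich parts, and 26.6, 29.3 and 26.7 CPM against 65.4 CPM beside macrophage-rich parts. Mouse Snai1 lay almost wholly in fibroblast-rich parts, at 75.4 to 149 mouse CPM, against 1.53 to 4.96 in macrophage-rich parts, and human SNAI1 did not follow that split.

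Human FN1 and ZEB2 were few beside abundant host transcripts of the same genes. Beside fibroblast-rich parts, where mouse Fn1 had 2423 to 3315 mouse CPM, there were 1.04, 0.610 and 0.870 human FN1 UMIs per 100 mouse Fn1 UMIs in the treated libraries and 1.08 in control. Human ZEB2 came to 4.31, 3.14 and 4.05 per 100 mouse Zeb2 UMIs there, against 1.60 in control. Beside macrophage-rich parts the measure was 16.1, 11.2 and 18.6 against 6.25 in control for FN1, and 4.03, 1.82 and 2.02 against 1.92 for ZEB2, so the human FN1 count did not keep a fixed ratio to that of the host. For genes of host cells that serve as a yardstick over all libraries, the same measure was 0 for C1QA, C1QB, CSF1R and KDR. It was 0.0687 for COL1A2, 0.204 for DCN, 0.222 for PDGFRA and 0.347 for MRC1. Then came ADGRE1 (1.13), PECAM1 (1.31), CDH5 (1.45), LUM (1.52) and RGS5 (2.28). Higher values were 4.55 for CD68, 6.42 for ACTA2, 6.68 for COL3A1, 10.7 for MYH11 (3 human UMIs) and 90.5 for COL1A1. COL1A1 had 5545 to 6500 human CPM, so it is a poor yardstick of host reads. Leaving out COL1A1, the highest value of these genes was 10.7. The ZEB2 values lay below it, as did those of FN1 beside fibroblast-rich parts and in control. Beside macrophage-rich parts of the treated libraries FN1, at 11.2 to 18.6, lay above it. The range is too wide to show how many of the FN1 and ZEB2 UMIs were misassigned. The part of misassigned host reads in FN1 and ZEB2 was not tested.

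Within a human part, the share found together had an interval that held the product of the single shares for 142 of 144 pairs over the 4 libraries (36 pairs a library, without TWIST1), and for 143 of 144 after thinning. The exceptions, both above the product, were SNAI1 with SNAI2 in erlotinib, and SNAI2 with FN1 in agrimoniin. SNAI2 and FN1 shared 2.83% of agrimoniin parts (1.23% to 5.49%) beside a product of 1.16%, and after thinning 7 parts where the product gave 1.79. In control, SNAI1 and ZEB1 shared 39 of 193 parts (20.2%), beside a product of 21.4%. ZEB1 and CDH2 shared 34.6%, 32.9% and 32.2% of treated parts and 20.2% of control parts, beside products of 34.2%, 31.9%, 32.6% and 20.8%. CDH2 and EPCAM shared 12.0%, 14.4% and 11.4% of treated parts and 6.74% of control parts, beside products of 10.1%, 10.8%, 10.2% and 6.46%.

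SNAI1 and SNAI2 were found together above the product in all 4 libraries, in 6.01%, 7.53% and 4.49% of treated parts and 9.84% of control parts, beside 3.95%, 4.41%, 3.36% and 7.19%. All 4 intervals but that of erlotinib (4.78% to 11.2%) included the product. Parts with SNAI1 were deeper, with a median of 14681 against 10304.5 human UMIs in control. The level of SNAI2 was 69.1 (51.7 to 90.3) CPM in parts with SNAI1 against 34.9 (28.5 to 42.4) in parts without it in agrimoniin, and 61.8 (47.4 to 79.2) against 29.6 (21.4 to 40.1) in control. In erlotinib, with 46.5 (33.6 to 62.6) against 31.6 (25.4 to 38.8), and in combination, with 35.7 (23.3 to 52.4) against 26.9 (20.7 to 34.3), the intervals overlapped. After thinning, few parts held both (4, 6 and 2 of the treated parts and 8 of the control parts), or 1.42%, 2.06% and 0.816% of treated parts and 4.15% of control parts, beside products of 1.37%, 1.35%, 0.880% and 1.83%; all 4 intervals included the product. ZEB1 in control ran the other way, at 107 CPM in parts with SNAI1 and 169 CPM in those without.

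The genes whose level per part was most like that of ZEB1, over 1013 parts and 4029 genes with a mean of at least 50 CPM, on a log scale centred within each library, were SBF2, JMJD1C and KANSL1, with Pearson r of 0.24, 0.23 and 0.22, and 0.16, 0.16 and 0.18 after thinning. Correlations of this size in sparse counts are no finding. Of the members, ZEB1 and VIM were found in at least 50% of all parts and were compared in this way. VIM had r of 0.54 with PTMA, 0.52 with NPM1 and 0.48 with EEF1A1 (0.51, 0.45 and 0.45 after thinning). The parts of a library share depth and preparation, and VIM itself had r of 0.20 with log depth.

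The wider gene programmes gave the setting of the members. Of 25 mesenchymal genes, 21, 22 and 21 had a mean of at least 10 CPM in the comparisons of agrimoniin, erlotinib and combination with control. Over all genes 5.18%, 6.46% and 5.93% passed the fold in either direction. In agrimoniin 1 was higher past 1.5-fold (TAGLN, an actin-binding protein of smooth muscle, 20.9 against 12.8 CPM in control) and 0 were lower. In erlotinib 2 were higher, TAGLN and ACTA2, and 3 lower, PRRX1, SPARC and THBS1; the matrix genes SPARC and THBS1 had 21.7 and 67.8 CPM against 44.2 and 116 CPM in control. Without the part richest in the gene in each library, PRRX1 (15 of 34 control UMIs in 1 part) had a ratio of 0.875 (0.466 to 1.67) and THBS1 (86 of 280) one of 0.791 (0.652 to 0.960), so neither was past the fold, whereas SPARC had 0.390 (0.263 to 0.572). In combination LOX, a collagen crosslinking enzyme, was higher, at 72.7 CPM against 38.0 CPM in control, and PRRX1 was lower with all parts, but had a ratio of 0.980 (0.514 to 1.89) without the richest ones. The medians of the list were 0.07, -0.04 and -0.07 on the log2 scale. ACTA2, at 23.6 CPM in erlotinib against 3.31 CPM in control, had 50 of its 89 erlotinib UMIs in 1 part and a ratio of 5.00 (1.97 to 16.3) without the richest parts, where its mean lay under 10 CPM. It is also a gene of host smooth muscle, whose marker sum was 321 mouse CPM in erlotinib and 987 in control.

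Of 25 epithelial genes, 9 reached a mean of 10 CPM. The splicing regulator ESRP1 had at most 0.265 CPM and GRHL2, a factor that upholds epithelial genes, had 0 UMIs in every library. Beside them, 5.18%, 6.46% and 5.93% of all genes passed the fold in agrimoniin, erlotinib and combination. In agrimoniin 0 of the 9 passed it. In erlotinib CLDN4, a claudin of tight junctions, was lower, at 10.9 against 19.0 CPM in control. In combination JUP, which links cadherins and desmosomes to the cytoskeleton, was higher, at 133 against 85.1 CPM. The medians of the list were -0.05, 0.05 and 0.06.

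Of 13 cadherin and catenin genes other than the members, 4 reached that level, and they were JUP, CTNNA1, CTNNB1 and CTNND1. The other cadherin genes of the list, among them CDH3, CDH6 and CDH11, lay at 0 to 6.61 CPM, so CDH2 was the most abundant cadherin gene of those listed in every library. Beta-catenin, p120-catenin (CTNND1) and plakoglobin (JUP) bind cadherin tails, and alpha-catenin (CTNNA1) binds beta-catenin. The 4 genes had median log2 ratios to control of 0.19, 0.09 and 0.28. CTNNB1, the gene of beta-catenin, had 264, 223 and 286 CPM in the treated libraries and 235 CPM in control.

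TGF-beta signalling, a known inducer of SNAI1, ZEB1 and CDH2, had 9, 10 and 9 of 12 genes at that level. Among all genes 5.18%, 6.46% and 5.93% passed 1.5-fold in either direction. Of the TGF-beta genes, 0 were higher past it in agrimoniin, 1 in erlotinib (TGFB1, 15.9 against 7.85 CPM in control) and 0 in combination. In all 3 comparisons 0 were lower. The medians were -0.09, -0.14 and -0.17. SMAD7, a feedback inhibitor that the pathway induces, had 87.2, 71.0 and 78.1 CPM in the treated libraries and 103 CPM in control, with ratios of 0.848 (0.717 to 1.00), 0.690 (0.578 to 0.823) and 0.760 (0.634 to 0.910). SMAD3, which carries the signal to the nucleus, had 93.7, 95.6 and 92.9 CPM against 119 CPM. Other genes of the list went the other way. SMAD2 had 111, 122 and 133 CPM against 105 CPM, and TGFBR2 had 89.7 CPM in combination against 75.2 CPM. Of the genes at that level, 1, 3 and 3 lay above control in agrimoniin, erlotinib and combination, and 8, 7 and 6 below it.

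Genes that control SNAIL protein, its co-repressors and the receptors of fibronectin had few members past the fold, as had all genes. Of all genes, 5.18%, 6.46% and 5.93% passed it in agrimoniin, erlotinib and combination. Of 10 genes for kinases, ubiquitin ligases and phosphatases that act on SNAIL, 0 passed in any of the 3 comparisons with control; the ligase gene FBXW7 had 58.0, 60.9 and 72.4 CPM in the treated libraries and 83.5 CPM in control. Of 11 co-repressor genes, only AJUBA passed, in erlotinib, at 24.4 against 16.1 CPM. Of 5 fibronectin receptor genes 0 passed, and ITGB1, the beta subunit of the fibronectin receptor, had 1197, 1095 and 1010 CPM in the treated libraries and 1085 CPM in control.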

How the data were processed

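Tumours were digested with collagenase II, strained and loaded with a Chromium 3′ kit for a target of 8000 cells, per the labels' protocols; 297, 306, 251 and 202 barcodes (agrimoniin, erlotinib, combination, control) were used here. Barcodes have 27 bases, which is not that kit's layout, so the platform is in doubt. Per the submitters' processing notes Cell Ranger, hg38 and mm10 were used; version, strand setting and the choice of barcodes are not given in the sources used here. For each library the authors deposited raw UMI counts, without normalisation, for 68886 features (36601 human, 32285 mouse) in each barcode. No barcode sequence was shared by libraries.

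Human parts were kept from 500 UMIs and 250 genes upwards, unless over 25% of their UMIs were mitochondrial. Doublets were not called, since every barcode held both species. Median human UMIs per part were 12653, 11926.5, 11819 and 11586. UMIs were summed per library; ratios have exact intervals conditional on the sum of both counts, CPM has exact Poisson intervals and shares have Clopper-Pearson intervals, all at 95%. UMIs within a part are not independent, so intervals are too narrow. A level of 0 allows up to 3 counts. Genes with a mean of at least 10 CPM in both libraries together were counted at 1.5-fold. No test was made, with 1 library per group. The computation was tested on simulated data.

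All members are named; other genes come from lists for mesenchymal, epithelial, TGF-beta, SNAIL control, co-repressor, cadherin and catenin, fibronectin receptor, dissociation-stress and cycling genes, of which those past the fold and up to 4 with the largest change were named, and a few others were named at their level after their values were seen. Members and lists were chosen with earlier results of these data known. The alternatives by host class and by MKI67 or TOP2A, the classes of parts, the ratios of list genes without the richest part and MIR200CHG were added after the data were seen. ZEB1-AS1 and VIM-AS1, antisense to members, had 5.15 to 7.85 and 5.03 to 8.68 CPM. Python 3.11.15, numpy 2.4.6, scipy 1.17.1, pandas 2.3.3 and matplotlib 3.10.9 were used. Positions and untranslated regions are from GENCODE 29.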

Additional observations from a re-analysis of the deposited data

Results flagged for a closer look

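CDH2 was higher in erlotinib than in control, at a ratio of 1.52, and lower in the combination than in agrimoniin, at 0.843, so adding erlotinib went with opposite directions without and with agrimoniin; the difference between these ratios was not tested, and 1 library stands for each group.

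The mouse parts were outside the main measurement. Of 30 comparisons of host counterparts of the members with control, 5 had an interval wholly above a ratio of 1 and 7 wholly below it. The share over all mouse genes is not given beside these counts, so they are no result about the members as a set. Mouse Zeb1 had a ratio of 1.53 (1.09 to 2.17) in agrimoniin, at 77.0 against 50.2 mouse CPM in control. Mouse Zeb2 had ratios of 1.26 (1.13 to 1.41) in erlotinib, 1.25 (1.11 to 1.41) in combination and 1.05 (0.938 to 1.18) in agrimoniin. Macrophage-rich parts, which held most of it, made up 189 of 292, 138 of 245 and 169 of 283 kept barcodes in that order, against 96 of 193 in control. Mouse Vim had a ratio of 1.15 (1.11 to 1.198) in combination, but 0.848 (0.816 to 0.882) in agrimoniin and 0.820 (0.789 to 0.853) in erlotinib. Mouse Fn1 was below control in all 3 treated libraries, at 0.709 (0.668 to 0.754), 0.559 (0.524 to 0.596) and 0.666 (0.621 to 0.714), and mouse Snai2 in agrimoniin, at 0.561 (0.339 to 0.918), and in erlotinib, at 0.521 (0.312 to 0.855). Mouse Epcam had a ratio of 4.21 (1.08 to 23.8) in combination, from 10 UMIs in only 2 barcodes, both fibroblast-rich, against 3 UMIs in 1 barcode in control, so its interval, which treats UMIs as independent, is too narrow. Shares of host cell types and levels per cell were not told apart.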

How the results depend on the processing

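No paired analysis was possible because each group has 1 library and the labels pair none of them; for the same reason no library could be left out of its group. SNAI1 was lower and CDH2 higher than control in each of the 3 comparisons under all 11 alternatives, with log2 ratios from -1.41 to -0.33 and from 0.06 to 1.15. The smallest for SNAI1 was that of erlotinib in parts with no UMI of MKI67 or TOP2A (-0.33, beside -0.86 over all parts). For CDH2 the values in barcodes of at least 75% human UMIs were 0.24, 0.07 and 0.06 for agrimoniin, erlotinib and combination, and 0.95, 1.15 and 0.85 in parts with no UMI of MKI67 or TOP2A; the mean over parts gave 1.02 in erlotinib. FN1 in the combination against control changed sign without the barcode richest in it (0.25) and in macrophage-rich barcodes (0.28), beside -0.31; the cause was not tested.

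The share of all genes past the fold changes with the setting too, so the counts below describe the processing and not the members. At a minimum of 50 CPM, 1.02%, 1.55% and 1.32% of all genes passed in agrimoniin, erlotinib and combination against control. For the other settings the share in either direction is not given here. Members past the fold moved as follows. Agrimoniin against control: 1 at a minimum of 50 CPM, 1 at 2-fold and 4 in fibroblast-rich barcodes, beside 2. Erlotinib against control: 1 at a minimum of 50 CPM and 1 at 2-fold, beside 2. Combination against control: 1 as a mean over parts, 1 without the richest barcode, 0 at a minimum of 50 CPM and 1 at 2-fold, beside 2. Combination against agrimoniin: 2 with no minimum and 1 in fibroblast-rich or macrophage-rich barcodes, beside 0. Combination against erlotinib: 1 with no minimum and 1 in macrophage-rich barcodes, beside 0. Other scalings shifted the median of all genes by less than 0.1 on the log2 scale. Of the members' 495 log2 ratios under the alternatives, 426 stayed within the interval of the reported value and 69 lay outside it. In 60 the sign differed from the reported one. Of these, 3 belonged to a reported ratio whose interval excluded no change, all of FN1 in erlotinib against control: 0.18 at 75% human UMIs or more, 0.01 without the richest barcode and 0.00 in macrophage-rich barcodes, beside -0.50. Detection shares depend on depth, and 51 of 80 moved beyond their interval on thinning; of 56 co-detection shares 36 did so on thinning or at a human share of at least 75%. Depth limits CDH1, ZEB2 and FN1, with at most 38 UMIs a library.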
